A study of Mus musculus with 2116 samples.

Results

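CTLA-4, CD28, ICOS, PD-1 and BTLA are receptors of the CD28 family, encoded in the mouse by Ctla4, Cd28, Icos, Pdcd1 and Btla. All 5 were found by symbol among the 23725 genes of a single-cell count table of spleen CD4+ T cells, and all 5 passed the minimum of 20 transcripts in both libraries together that was set for a ratio. The cells came from male mice of strain B6 Foxp3-Ires-Gfp, aged 8 months, in which green fluorescent protein is made from the Foxp3 transcript. One library held 816 cells labelled as regulatory T cells (Treg, FoxP3+) and the other held 1300 cells labelled as conventional CD4+ T cells (Tconv, FoxP3-). Both were sorted as living cells with TCR beta and CD4 on their surface, and the labels name no treatment. The gate is written as GFP positive for both, so the groups rest on the titles of the cells. Transcripts were counted with inDrops, which captures single cells in droplets and tags each copied mRNA molecule with a unique molecular identifier (UMI).

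CD28 gives a T cell the second signal that, beside the antigen receptor, leads to full activation, and it binds CD80 and CD86 on antigen-presenting cells. CTLA-4 binds the same ligands more tightly, and Treg cells use it to strip them from antigen-presenting cells. ICOS is a costimulatory receptor that is induced on activated, follicular helper and effector Treg cells, while PD-1 and BTLA recruit phosphatases that dampen antigen receptor signalling.

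The libraries held 1468203 UMIs in Treg and 2002752 in Tconv, with a median of 1688.5 and 1510.5 UMIs per cell. Foxp3, the transcription factor that marks the Treg lineage, stood at 380.1 counts per 1000000 UMIs (CPM) in Treg and 2.996 in Tconv, and Cd4 at 501.97 and 703.03 CPM, so both libraries matched their labels at these genes. Markers of other cell types were more frequent in Treg: at least 3 UMIs of a list for another cell type were found in 9.93% of Treg cells, against 3.23% of Tconv cells. Of these 81 Treg and 42 Tconv cells, 13 and 10 had 0 UMIs of the T lineage list. Most of them thus also carried T lineage transcripts, and the shares are not counts of cells of another type. The libraries shared 12 cell barcodes. Each group is 1 library and no animals are named, so no test between groups was possible and no p-value was computed. The intervals given are 95% intervals for counting error alone, and they are too narrow where UMIs of a gene clump in cells.

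Cd28, Ctla4 and Icos lie side by side on chromosome 1 in the same orientation. On the GRCm38 assembly Cd28 spans chr1:60716800-60773359, Ctla4 chr1:60887000-60915832 and Icos chr1:60977927-61000320, all on the plus strand. By these GENCODE gene spans the gaps between them are 113640 and 62094 bases, with 0 protein-coding genes in them. Pdcd1 lies further along the chromosome at chr1:94038305-94052553 on the minus strand, and Btla at chr16:45224315-45257670 on the plus strand. The annotation places a same-strand pseudogene inside Ctla4 and another gene model over Icos, and how the counting treated such overlaps is not given in the sources used here. Transcripts of different members share no identical stretch longer than 15 bases.

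The 3 neighbouring genes encode related ligand-binding loops, rich in proline, and the coding bases of that loop are shown because Ctla4 and Cd28 share most of them. The loop lies in exon 2 of each gene, at chr1:60912707-60912736 in Ctla4, chr1:60763269-60763298 in Cd28 and chr1:60993977-60994006 in Icos (GRCm38, GENCODE transcripts, plus strand). The 18 bases of the loop are in capitals and the flanking bases in lower case.
Ctla4: gaactcATGTACCCACCGCCATACtttgtg
Cd28: gagttcATGTACCCTCCGCCTTACctagac
Icos: tccattTTTGACCCACCTCCTTTTcaagaa
Ctla4 and Cd28 had the same base at 16 of the 18 loop positions, and Icos matched each of them at 11 of 18. Among these 3 genes the pair with the most alike loop bases lay farthest apart in its Treg to Tconv ratio, which concerns the loop alone: the longest identical stretch of whole transcripts was 12 bases for Ctla4 with Cd28 and 15 for Cd28 with Icos.

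Promoter windows of 250 bases before the start site were in the RefSeq table for Ctla4, Pdcd1 and Btla (GRCm38.p6), and are shown because 2 of these genes were higher in Treg and 1 was not. Capitals mark the forkhead core AAACA and the NFAT core GGAAA on either strand, the short motifs of the families that include FOXP3 and the calcium-regulated NFAT factors. The windows are chr1:60908775-60909024 (plus strand), chr1:94052554-94052803 (minus strand) and chr16:45224087-45224336 (plus strand), each written in the direction of transcription. The RefSeq start site of Ctla4, chr1:60909025, lies inside the GENCODE gene span given above, which begins at chr1:60887000. The Ctla4 window thus lies within that span, and the start site that these cells use was not tested.
Ctla4: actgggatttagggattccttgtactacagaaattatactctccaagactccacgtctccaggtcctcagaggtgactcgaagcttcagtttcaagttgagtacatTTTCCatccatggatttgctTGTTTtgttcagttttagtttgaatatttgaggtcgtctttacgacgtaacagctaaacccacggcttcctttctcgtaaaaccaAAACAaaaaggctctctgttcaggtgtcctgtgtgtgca
Pdcd1: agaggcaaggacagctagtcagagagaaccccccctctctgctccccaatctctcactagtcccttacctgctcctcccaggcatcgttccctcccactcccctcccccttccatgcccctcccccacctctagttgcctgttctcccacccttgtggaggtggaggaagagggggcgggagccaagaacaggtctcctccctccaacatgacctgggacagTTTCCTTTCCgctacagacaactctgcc
Btla: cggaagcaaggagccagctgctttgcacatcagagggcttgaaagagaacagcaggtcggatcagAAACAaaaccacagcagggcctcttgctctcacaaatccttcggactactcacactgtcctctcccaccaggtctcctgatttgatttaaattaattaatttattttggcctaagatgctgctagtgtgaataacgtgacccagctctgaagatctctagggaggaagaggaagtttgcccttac
The Ctla4 window held 2 forkhead matches, Btla held 1 and Pdcd1 held 0. Of 32851 windows of this length, 46.4% held at least 1 such match and 18.3% at least 2. The NFAT core was found once in Ctla4, 2 times in Pdcd1 and 0 times in Btla. At least 1 match stood in 55.6% of all windows and at least 2 in 21.4%. Neither the AP-1 letters TGANTCA, found in 6.75% of all windows, nor TATAAA, found in 12.4%, occurred in the 3 windows. These matches are descriptions of letters and not binding sites.

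The comparison of the sorted populations asks how the receptor family differs between regulatory and conventional cells. The inhibitory receptor Ctla4 and the costimulatory receptor Icos were higher in Treg, Pdcd1 was higher at a low level, and Cd28 and Btla were near even. Of the 5 members 3 were at least 2-fold higher in Treg, and 0 were at least 2-fold lower. Of all 8988 genes that met the minimum, the share 2-fold or more higher was 8.61%, and the share 2-fold or more lower was 3.60%. The median log2 ratio of the members was 1.27, against 0.14 for all genes.

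Ctla4 reached 111.02 CPM in Treg (94.6 to 129.4) and 2.497 CPM in Tconv (0.81 to 5.83), the latter from 5 UMIs. It was thus close to the floor of detection in conventional cells and well above it in Treg. Its log2 ratio was 5.47 (4.22 to 7.12), a 44.5-fold difference (18.7 to 138.8), and 8 of the 8988 genes had a higher ratio. Because the denominator is 5 UMIs, the size of the fold is imprecise: it was 6.17 on the log2 scale without cells above 2 times the median depth and 4.94 in cells thinned to equal depth.

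Icos, which binds ICOS ligand on B cells and other antigen-presenting cells, reached 170.96 CPM in Treg (150.5 to 193.5) and 58.9 CPM in Tconv (48.8 to 70.6). The intervals of the libraries lay far apart. The log2 ratio was 1.54 (1.22 to 1.86), a 2.90-fold difference (2.32 to 3.64), and 96.4% of genes had a lower one.

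Pdcd1, which encodes PD-1, was the sparsest member in Treg and, after Ctla4, in Tconv, at 20.4 CPM in Treg (13.8 to 29.2, 30 UMIs) and 8.49 CPM in Tconv (4.94 to 13.6, 17 UMIs). Its log2 ratio was 1.27 (0.36 to 2.22). The interval lay above 0, 94.4% of genes had a lower ratio, and with so few UMIs the lower bound stood at 1.29-fold.

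Cd28 was the most abundant member in both libraries, at 220.7 CPM in Treg (197.3 to 246.1) and 265.1 CPM in Tconv (243.1 to 288.7). The costimulatory receptor was therefore slightly lower in Treg, with a log2 ratio of -0.26 (-0.47 to -0.06). It stood at -0.42 with TMM scaling and at -0.39 against a total without the ribosomal protein genes, scalings that shift the median of all genes from 0.14 to -0.02 and 0.01. Cd28 was the only member whose interval lay wholly below 0. With Ctla4, Icos and Pdcd1, whose intervals lay above 0, 4 of 5 members had an interval clear of 0, against 32.2% of all genes in either direction.

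Btla, which binds the TNF receptor family member HVEM, stood at 44.95 CPM in Treg (34.8 to 57.2) and 51.4 CPM in Tconv (41.98 to 62.4). The intervals overlapped, and the log2 ratio of -0.19 (-0.66 to 0.27) left its direction unsettled. In cells thinned to equal depth the ratio was 0.03.

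**Figure D1:**
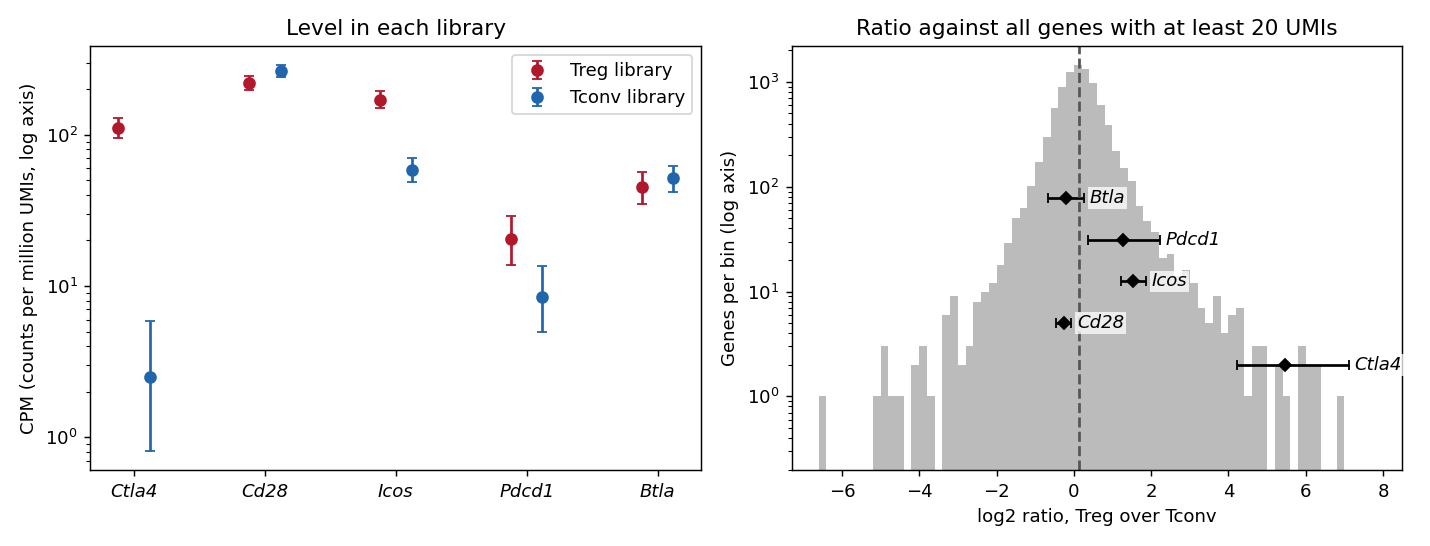
Left, level of each receptor gene in CPM (log axis) in the Treg and Tconv libraries, with exact 95% Poisson intervals. Right, log2 ratio of Treg to Tconv for each receptor (diamonds, 95% interval, spread vertically for legibility) over the distribution of 8988 genes, with the all-gene median of 0.14 dashed. Genes with 0 UMIs in a library stand at the bound set by 3 counts. Ctla4 lies at 5.47, in the far tail, and Cd28 and Btla lie left of the median.

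Read as a family, the receptors were shared out differently in the libraries. The 5 genes together summed to 568.0 CPM in Treg and 386.5 CPM in Tconv, and their log2 ratio was 0.56 (0.41 to 0.70). A UMI is counted once per molecule and is not divided by transcript length, so these shares compare molecules captured and not protein. Cd28 made up 68.6% (65.2 to 71.9) of the family UMIs in Tconv and 38.8% (35.5 to 42.3) in Treg. Ctla4 made up 19.5% (16.9 to 22.4) in Treg and 0.646% (0.210 to 1.501) in Tconv, and Icos 30.1% and 15.2%. For every 100 UMIs of Cd28 there were 50.3 of Ctla4 in Treg (41.4 to 60.9) and 0.942 in Tconv (0.304 to 2.21). Icos had 77.5 per 100 Cd28 UMIs in Treg (65.4 to 91.6) and 22.2 in Tconv (18.05 to 27.2), while Btla had 20.4 and 19.4, with overlapping intervals.

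The share of cells in which a receptor was seen followed the levels. To compare cells at equal depth each cell was thinned to 1000 UMIs, which left out the shallower 9.56% of Treg cells and 14.8% of Tconv cells. At this depth Ctla4 had a UMI in 7.99% (6.14 to 10.2) of the Treg cells and 0.361% (0.0984 to 0.922) of the Tconv cells. Unthinned, the shares were 12.9% and 0.385%. Icos was seen in 9.35% (7.35 to 11.7) and 3.52% (2.51 to 4.78), or 12.9% and 5.69% unthinned. Cd28 was the receptor seen in most cells of each library, at 15.7% (13.2 to 18.5) in Treg and 20.2% (17.9 to 22.7) in Tconv, or 21.7% and 26.3% unthinned. Pdcd1 was seen in 1.76% (0.941 to 2.99) and 0.632% (0.254 to 1.30), and unthinned in 2.45% and 0.769%. Btla was seen in 3.25% (2.09 to 4.80) and 4.51% (3.37 to 5.91), and unthinned in 5.64% and 6.46%. For Cd28, Pdcd1 and Btla the thinned intervals of the libraries overlapped. A cell with 0 UMIs of a receptor is not shown to lack it, since most transcripts of a cell are not captured.

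Free RNA can place a UMI in a cell that does not make the transcript. Cells that held at least 3 UMIs of another cell type's list and 0 of the T lineage list gave a view of it, although they number 13 in Treg and 10 in Tconv, with median depths of 1492 and 1707 UMIs. Ctla4, Cd28 and Pdcd1 had a UMI in 0 of these cells in either library, and Icos had one in 1 cell of Treg. A count of 0 in 13 cells still allows a share of up to 24.7% (exact binomial). Btla, which B cells also express, had a UMI in 3 of the 13 and 1 of the 10. Cells with markers of other types held 12.1% of the Btla UMIs in Treg and 1.94% in Tconv, and without them the Btla ratio was -0.24. Without those cells Ctla4 stood at 5.52, Icos at 1.68, Pdcd1 at 1.33 and Cd28 at -0.25. Without the cells whose barcodes occur in both libraries the ratios were 5.48, 1.51, 1.27 and -0.25, and -0.17 for Btla.

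UMIs of a receptor were not spread evenly over the cells that held them. Icos was often seen with several UMIs in Treg: of the cells with a UMI 55.2% held at least 2, and 1 cell held 14. In Tconv 31.1% of 74 cells held at least 2, and the highest count was 5. Of the Treg cells with a Ctla4 UMI 31.4% held at least 2, with at most 5 in a cell, whereas each of the 5 Tconv cells held exactly 1. Cd28 was alike in the libraries, with at least 2 UMIs in 36.7% of the cells with a UMI in Treg and 33.04% in Tconv. Btla UMIs were mostly single, with at least 2 in 21.7% of 46 Treg cells and 14.3% of 84 Tconv cells. At 1000 UMIs per cell the Fano factor, the variance over the mean, was 2.48 for Btla, 2.21 for Icos, 1.80 for Pdcd1 and 1.598 for both Ctla4 and Cd28 in Treg, against 1 for independent counts. In Tconv it was 2.18 for Icos, 1.90 for Pdcd1, 1.44 for Cd28, 1.16 for Btla and 0.997 for Ctla4.

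**Figure D2:**
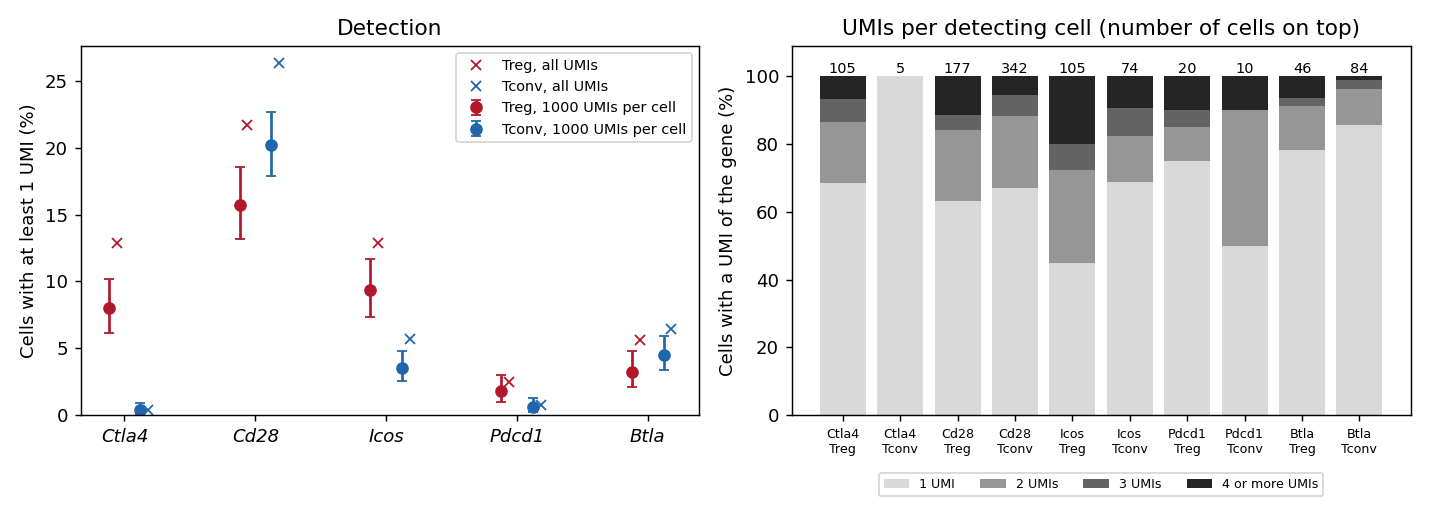
Left, percent of cells with at least 1 UMI of each receptor after thinning to 1000 UMIs (points with exact 95% binomial intervals) and with all UMIs (crosses). Right, cells that held a UMI of the receptor, split by how many UMIs they held, with the number of cells on top. Ctla4 was seen in 12.9% of Treg and 0.385% of Tconv cells with all UMIs, and Icos in Treg has the largest share of cells with several UMIs.

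Co-detection asked whether receptors were seen in the same cells. In Treg, Ctla4 and Icos were seen together more often than their separate shares would give: 12 thinned cells held both, against 5.52 from the product of the shares. Icos was seen in 20.3% of cells with a Ctla4 UMI (10.98 to 32.8) and in 8.39% of those without (6.42 to 10.7), an odds ratio of 2.78 (1.27 to 5.71). With all UMIs 27 cells held both against 13.5, an odds ratio of 2.80 (1.64 to 4.71). The size depended on depth, since at 500 UMIs per cell the odds ratio was 1.51. Ctla4 cells were deeper, with a median of 1990 UMIs against 1649 in the others, and this bears on the unthinned counts. Within cells with 0 to 2 UMIs of the effector or memory list the odds ratio was 3.08 (0.53 to 12.1), and with at least 3 it was 2.29 (0.88 to 5.43). Both values stayed above 1, and both intervals included 1.

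The other pairs gave no association that stood clear of counting error at equal depth. Cd28 and Icos were seen together in 16 Treg cells against 10.8, an odds ratio of 1.72 (0.88 to 3.20), and in 10 Tconv cells against 7.88, an odds ratio of 1.38 (0.59 to 2.96). With all UMIs the Tconv value was 1.996 (1.19 to 3.31), with 30 cells against 19.5. Ctla4 and Cd28, which compete for the same ligands, were seen together in 12 Treg cells against 9.27, an odds ratio of 1.41 (0.66 to 2.82), and at 1.71 (1.05 to 2.74) with all UMIs. Cd28 and Btla showed 10 cells against 10.1 in Tconv and 1 against 3.77 in Treg. Pdcd1 was seen with Ctla4 in 3 Treg cells against 1.04 and with Icos in 3 against 1.22, too few for a statement. Of 10 pairs in each library, Ctla4 with Icos in Treg was the one whose thinned interval lay wholly above 1.

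Most thinned cells showed no receptor of the family at all, 68.3% in Treg (64.8 to 71.6) and 72.8% in Tconv (70.1 to 75.4). A single receptor was seen in 26.02% of Treg and 25.2% of Tconv cells. In Treg 37 cells showed 2 receptors and 5 showed 3, and in Tconv 21 cells showed 2 and 1 showed 3. Independence of the shares would give 4.30% and 1.92% of cells with 2 receptors, against 5.01% and 1.90% observed. The most frequent combination in Treg was Cd28 with Icos but no other member, in 13 cells, then Ctla4 with Cd28 in 10 and Ctla4 with Icos in 8. In Tconv Cd28 with Icos and Cd28 with Btla were seen in 9 cells each.

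**Figure D3:**
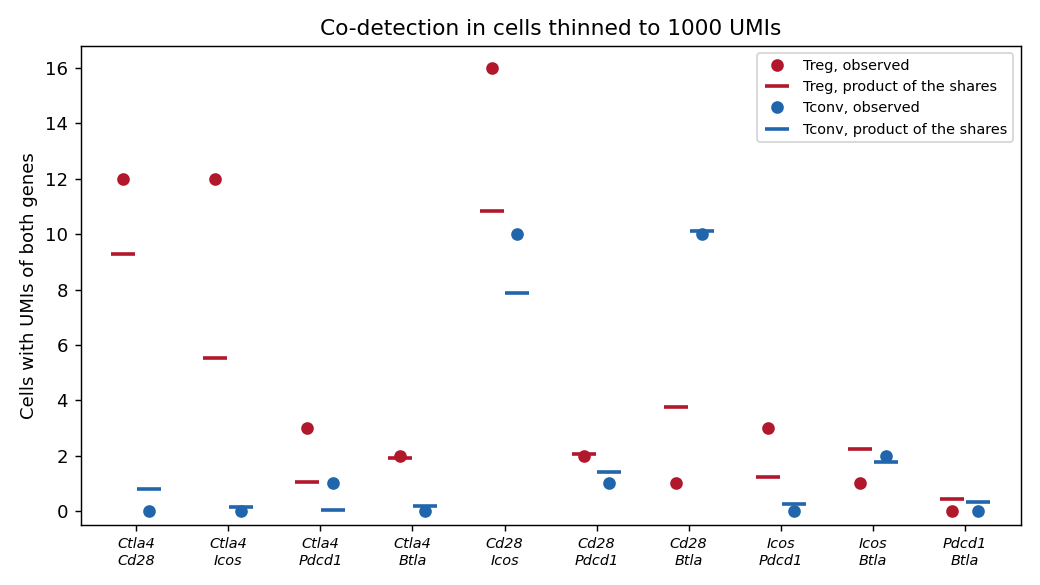
Number of cells, each thinned to 1000 UMIs, with UMIs of both receptors of a pair (points) and the number the product of the separate shares gives (bars), in the Treg and Tconv libraries. Ctla4 with Icos in Treg stands at 12 cells against 5.52, whereas Cd28 with Btla in Tconv stands at 10 against 10.1.

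Each receptor was then set against the state of the cell, read from UMIs of other gene lists at equal depth. Cells with at least 3 UMIs of an effector or memory list, which holds genes such as S100a4, S100a6 and Itgb1, showed Icos more often. In Treg Icos was seen in 5.36% (1.99 to 11.3) of cells with 0 UMIs of the list, 5.75% (3.25 to 9.30) of those with 1 to 2 and 13.2% (9.86 to 17.1) of those with at least 3. In Tconv the shares were 1.604% (0.332 to 4.62), 2.05% (0.989 to 3.74) and 5.99% (3.95 to 8.65). Both libraries thus had the higher share in the top class. The odds ratio between the outer classes was 2.67 (1.10 to 7.86) in Treg and 3.90 (1.17 to 20.4) in Tconv, where the lowest class held 3 cells with Icos. Its size was unstable: another random thinning gave 4.28 and 1.79, and all UMIs 2.63 and 1.45.

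Cd28 did not follow the effector list. It was seen in 13.4%, 17.6% and 15.1% of the Treg classes and in 18.7%, 21.97% and 18.9% of the Tconv classes, with overlapping intervals. Ctla4 in Treg was seen in 8.04%, 4.598% and 10.4%, with no steady order. All 7 thinned Tconv cells with Pdcd1 lay in the top class, which held 434 cells.

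Genes of resting cells, such as Ccr7 and Il7r, went with fewer detections of Icos and Ctla4 in Treg. Icos was seen in 24.6% (14.8 to 36.9) of the 65 Treg cells with 0 UMIs of the resting list and 7.88% (5.95 to 10.2) of the others, an odds ratio of 0.263 (0.135 to 0.529). Ctla4 was seen in 16.9% and 7.13%, an odds ratio of 0.378 (0.180 to 0.854), although these share intervals overlapped. Btla was seen in 1 of the 65 cells and in 3.42% of the others, and Pdcd1 in 1 and 1.78%, with overlapping intervals. In Tconv 8 thinned cells lacked resting list UMIs, which left nothing to compare. Ctla4 was also seen more often in Treg cells with a UMI of the list of genes induced by the T cell receptor, in 10.6% (7.71 to 14.2) against 5.25% (3.19 to 8.08), an odds ratio of 2.15 (1.19 to 4.01). For Cd28 the same odds ratio was 0.881 (0.580 to 1.34). In Treg cells with a Foxp3 UMI, Icos was seen in 13.3% against 8.00%, Cd28 in 19.7% against 14.4% and Ctla4 in 10.1% against 7.27%. All 3 pairs of share intervals overlapped. The odds ratio was 1.76 (1.0005 to 3.05) for Icos, 1.46 (0.92 to 2.29) for Cd28 and 1.43 (0.76 to 2.61) for Ctla4.

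**Figure D4:**
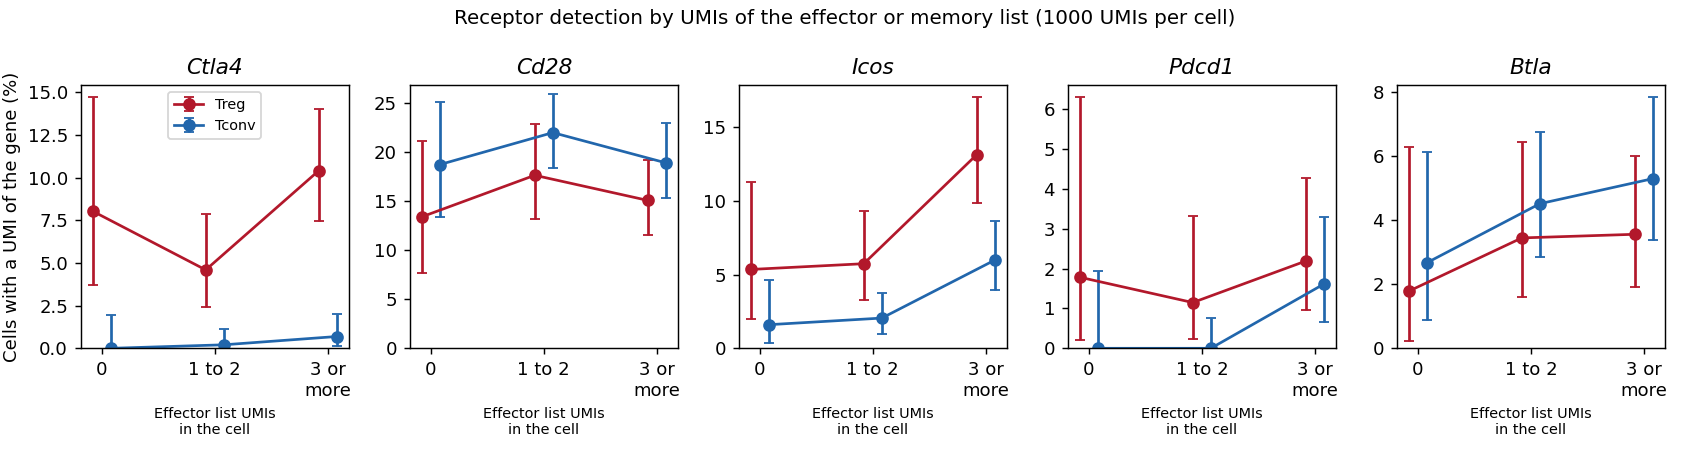
Percent of thinned cells with a UMI of each receptor in cells with 0, 1 to 2 or at least 3 UMIs of the effector or memory list, in Treg and Tconv, with exact 95% binomial intervals and a separate vertical scale for each receptor. Icos is highest in the top class of both libraries, at 13.2% and 5.99%, and Cd28 is flat.

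Summed over genes, cells with a Ctla4 or Icos UMI carried a more effector-like set of transcripts. In Treg the effector or memory list was higher in cells with Ctla4 than in those without, by 0.95 (0.80 to 1.10) on the log2 scale, and in cells with Icos by 1.10 (0.96 to 1.24). At least 1 UMI of the list was found in 84.7% of cells with Ctla4 and 84.8% of those without. The medians were 4 and 2 UMIs. For Icos the shares were 91.3% and 84.2%, and the medians 5 and 2. By cells, the odds ratio of Ctla4 between the outer effector classes was 1.33 (0.606 to 3.23). The resting list was lower in cells with Ctla4, at -0.80 (-1.04 to -0.58), and in cells with Icos, at -0.62 (-0.83 to -0.42). Another random thinning gave -0.45 for Ctla4 and the resting list. Cells with Btla had more of the resting list, at 0.44 (0.19 to 0.68). The Treg signature list holds Foxp3, Il2ra and Ikzf2 and is taken here without the receptors themselves. It was higher with Ctla4 by 0.63 (0.48 to 0.78) and with Icos by 0.22 (0.06 to 0.38). The T lineage list was also higher with Ctla4, at 0.45 (0.26 to 0.64), and stood at 0.12 (-0.08 to 0.31) with Icos and 0.24 (0.09 to 0.39) with Cd28. How much of the signature contrast goes with T lineage transcripts in general was not tested. Cd28 marked no such contrast for the signature, at 0.02 (-0.12 to 0.15), and a small one for the effector list, at 0.23 (0.09 to 0.37).

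In Tconv the cells with Icos also carried more of the effector list, at 1.17 (0.96 to 1.37), of the T cell receptor response list, at 1.11 (0.73 to 1.47), and of the Treg signature, at 1.15 (0.58 to 1.68). A single cell held 21 of the 67 T cell receptor response UMIs, and by cells the odds ratio of Icos with that list was 1.22 (0.60 to 2.43). At least 1 UMI of the Treg signature was found in 35.9% of the Tconv cells with Icos and 20.8% of those without. Over all Tconv cells Izumo1r held 320 of the 750 UMIs of this signature and Foxp3 held 6. The cells with Icos were not split by these genes. The resting list of the Tconv cells with Icos was level with that of the other cells, at -0.03 (-0.21 to 0.15), unlike in Treg. The difference between the libraries was not tested. The follicular helper list, with Cxcr5, Tox and Maf, was higher in Treg cells with Icos, at 0.78 (0.43 to 1.12), with Cd28, at 0.73 (0.43 to 1.01), and with Ctla4, at 0.58 (0.19 to 0.96). It also holds Tcf7, a gene of the resting list, at 146.4 CPM in Treg against 31.3 for Cxcr5. Against Cxcr5 alone the odds ratios in Treg were 2.51 (0.592 to 8.09) for Icos and 1.82 (0.507 to 5.41) for Cd28. For Ctla4 it was 2.08 (0.380 to 7.53), and all 3 intervals included 1.

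The B cell list separated Btla from the other receptors in its summed UMIs, but through very few cells. Cells with a Btla UMI carried 4.48-fold (3.41 to 5.82) more UMIs of the B cell list in Treg and 3.86-fold (2.54 to 5.68) more in Tconv. For Ctla4, Cd28 and Icos in Treg the same list was lower in cells with the receptor, at log2 ratios of -2.10, -3.73 and -1.85. Of the 22 Treg cells with at least 3 UMIs of the B cell list 5 held Btla, 2 each held Cd28 and Icos, and 1 each Ctla4 and Pdcd1. Of the 10 such Tconv cells 1 held Btla and 0 held another member. In Treg 1 cell held 37 of the 66 B cell UMIs found with Btla, and in Tconv 1 cell held all 31. By cells, at least 1 UMI of the list was found in 8.33% of the Treg cells with Btla and 6.02% of those without, and in Tconv in 2.0% and 1.51%. For Icos and Ctla4 in Treg the shares ran against the sums, with at least 1 such UMI in 17.4% of cells with Icos and 4.93% of those without, and in 13.6% and 5.45% for Ctla4. Without cells that held markers of another type the Btla ratio was -0.24, as given above, against -0.19 with them.

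**Figure D5:**
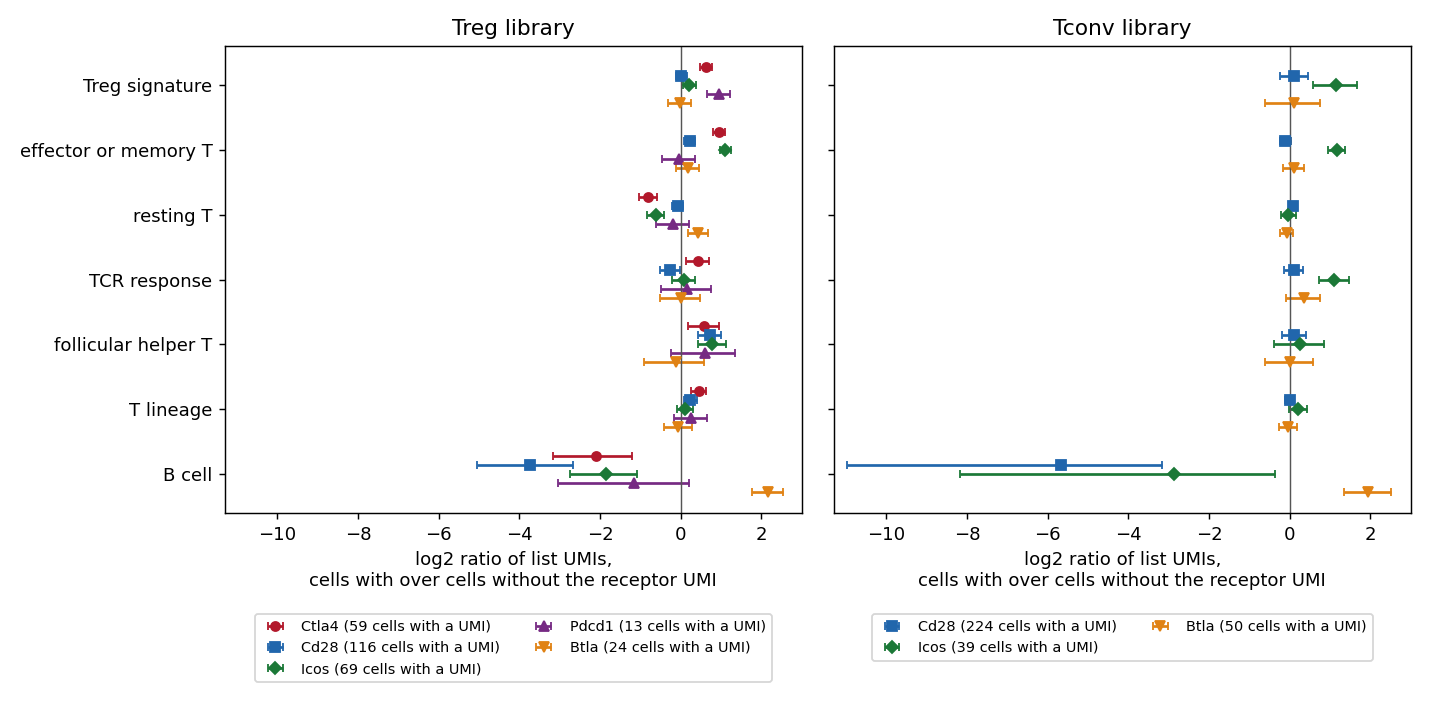
Log2 ratio of the UMIs of 7 gene lists in thinned cells with against those without a UMI of each receptor, with exact 95% intervals, for receptors with at least 10 such cells. Ctla4 and Icos in Treg lie right of 0 for the effector list and left for the resting list, and Btla alone lies right of 0 for the B cell list, through 2 cells in Treg and 1 in Tconv.

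Single genes of these lists were compared in the same way, 88 in Treg and 86 in Tconv for each receptor, and those whose intervals did not overlap are given here, chosen after their values were seen. The share of all genes with intervals apart was not computed. The counts therefore do not show whether the listed genes stand out from other genes in these cells. With Ctla4 in Treg there were 7, all higher in cells with the receptor. They included Tnfrsf9, the costimulatory receptor 4-1BB, seen in 22.03% of cells with Ctla4 (12.3 to 34.7) and 7.66% of those without (5.77 to 9.92), and Capg, an actin-capping protein, in 25.4% and 11.2%. The chemokine receptor Cxcr3 was seen in 10.2% and 1.62%. With Icos in Treg 9 were higher and 1 lower. Maf, a transcription factor of follicular helper and effector Treg cells, was seen in 15.9% (8.24 to 26.7) and 3.74% (2.43 to 5.47). Tox was seen in 20.3% and 8.67% and Sh2d1a, the adaptor SAP, in 17.4% and 5.53%. The lower gene was Rgs1, a regulator of G-protein signalling, seen in 0 of 69 cells with Icos and in 7.03% of those without, a pair of intervals that touch at 5.21%. With Cd28 in Treg no gene of the 88 had intervals apart.

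Across all genes, likeness was measured as the phi coefficient of detection over thinned cells, among 2998 genes in Treg and 4254 in Tconv seen in at least 30 cells. All values were low, as sparse counts give, and they are a description. The genes most like Icos in Treg were S100a6, at 0.24, S100a4, at 0.22, Nfatc1, at 0.21, AW112010, at 0.19, and Hif1a, at 0.17. Those most like Ctla4 were Nol3, at 0.17, Nsmce1, S100a4, Cbx6 and Rab8b, and those most like Cd28 were Mob3a, at 0.15, Mcm7, Khdrbs1, Rbms1 and Fam102a. Icos ranked 26th among the genes like Ctla4, and Ctla4 41st among those like Icos, whereas Cd28 had a phi of 0.04 with Ctla4. In Tconv Icos was nearest to Kdelr2, at 0.16, Zdhhc18, AW112010, Asb8 and Nmi. AW112010 was the one gene among the 5 nearest to Icos in both libraries. Cd28 in Tconv was nearest to 2510002D24Rik, at 0.12, Atp5b, Ypel3, Acly and Mbp, and Btla to Tuba4a, at 0.15, Bcl10, Nudt21, Szrd1 and Ppp3ca.

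The few conventional cells with a UMI of Ctla4 or Pdcd1 were looked at one by one. The 5 Tconv cells with Ctla4 had no Foxp3 UMI, and 1 of them also held Pdcd1. Their Treg signature UMIs were 2, 22, 5, 0 and 17, so that 4 of 5 held some, against 27.3% of all Tconv cells. Ikzf2, which encodes Helios, was seen in 4 of the 5 (28.4% to 99.5%) and in 2.01% of the other cells, and Izumo1r, the folate receptor 4, in 3 of 5 against 10.5%. At equal depth 4 of the cells were left, and 2 of them held Ikzf2 against 0.996% of the others. Depth was not alike, at 727, 3947, 3511, 1204 and 1558 UMIs, against a median of 1510.5.

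The 10 Tconv cells with Pdcd1 had a median depth of 1522 UMIs and were thus as deep as the library. Cxcr5, the chemokine receptor that guides follicular helper cells into B cell follicles, was seen in 4 of the 10 (12.2% to 73.8%) and in 0.775% of the other 1290 cells. Maf was seen in 5 of 10 against 2.40%, Tox in 5 against 4.96%, Izumo1r in 8 against 10.2% and Nfatc1, a calcium-regulated transcription factor, in 7 against 9.38%. None of these cells held a Foxp3 UMI. The effector list genes Itgb1 and S100a6 were seen in 7 and 6 of the 10, against 6.51% and 2.48%. Of 89 list genes compared, 15 had intervals apart in these cells, all of them higher, and thinned 11 of 86 did. The share of all genes with intervals apart was not computed, so these counts have no background beside them. Cxcr5, Izumo1r, Nfatc1, Itgb1 and S100a6 were among those 11, whereas Maf and Tox were not. Thinned, 7 cells with Pdcd1 were left, and their Treg signature was 3.46 higher on the log2 scale (2.84 to 4.02), their follicular helper list 2.43 higher (1.69 to 3.09), their effector list 1.47 higher (1.03 to 1.88) and their resting list lower, at -1.69 (-2.53 to -0.96).

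The 20 Treg cells with Pdcd1 had a median depth of 1689.5 UMIs, level with the library. Foxp3 was seen in 13 of the 20 (40.8% to 84.6%), against 35.7% of the other cells. Ikzf2 was seen in 13 against 28.5%, Tnfrsf9 in 11 against 11.4% and Tox in 8 against 11.2%. Cd200 and Cd160 were seen in 5 and 3, against 3.77% and 0.754%. At equal depth these contrasts were mostly within counting error: 1 of 88 list genes had intervals apart, against 8 of 92 with all UMIs. That gene was Tnfrsf9, seen in 5 of 13 cells with Pdcd1 and 8.28% of the others, while Foxp3 was seen in 4 of 13 (9.09% to 61.4%) against 25.4%. For these cells too, the share of all genes with intervals apart was not computed. Thinned to equal depth, 13 cells were left and their Treg signature was 0.95 higher (0.66 to 1.21), while their effector list was level with other cells, at -0.03 (-0.46 to 0.37). In Treg, Pdcd1 was thus seen in cells with more of the Treg signature, and Icos in cells with more of the effector list. The difference between the receptors was not tested.

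Other genes of the pathway came from lists of related function, and each count is read against the 8.61% and 3.60% of all genes. Of 8 ligand genes, 2 had enough UMIs in these libraries. The Pdcd1lg2 UMIs lay in 10 cells of Treg and 1 of Tconv, and whether T cells held them was not tested. Pdcd1lg2, which encodes the PD-1 ligand PD-L2, was counted 21 times in Treg and 1 time in Tconv, which gives a log2 ratio of 4.84 (2.20 to 10.2), and Cd274, which encodes PD-L1, had 74 and 58, a log2 ratio of 0.80 (0.28 to 1.32). The CD28 ligands were sparse, with 6 and 0 UMIs for Cd80 and 8 and 6 for Cd86, and Icosl had 10 and 5.

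Signalling genes downstream of the receptors were near even. Of 19 genes of CD28 and ICOS signalling 0 were 2-fold higher and 1 was 2-fold lower in Treg, with a median log2 ratio of 0.26. Bcl10, an adaptor of NF-kB activation, stood at 0.57 (0.27 to 0.88) and Nfatc1 at 0.52 (0.23 to 0.81). Of 11 genes of inhibitory signalling by PD-1 and BTLA none was past 2-fold, and the median was -0.01. The lipid phosphatase gene Inpp5d stood at 0.95 (0.59 to 1.32) and Cblb, a ubiquitin ligase that restrains T cells lacking CD28 signals, at 0.90 (0.54 to 1.26). Ptpn11, which encodes the phosphatase SHP-2 that PD-1 recruits, was lower at -0.92 (-1.50 to -0.36), and Dgka, a diacylglycerol kinase, at -0.40 (-0.53 to -0.28).

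Genes that move CTLA-4 through the cell were near the share of all genes at 2-fold, with smaller differences mostly towards Treg. Of 12 measured, 1 was 2-fold higher and 0 were 2-fold lower, while 8 ratios lay above 0 and 4 below. Intervals clear of 0 were found for 7 of the 12, all of them above it, against 32.2% of all genes in either direction. An interval narrows as UMIs increase, and the genes set side by side were not matched for UMIs. The median was 0.44, against 0.14 for all genes. Lrba, which protects CTLA-4 from breakdown in lysosomes, stood at 1.17 (0.80 to 1.55), at 110.3 CPM in Treg and 48.9 in Tconv. Cltc, the clathrin heavy chain that takes CTLA-4 into the cell, stood at 0.82 (0.51 to 1.12), Rab11a, a GTPase of recycling endosomes, at 0.60 (0.24 to 0.96) and Arf1 at 0.41 (0.28 to 0.54).

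A list of inhibitory receptors outside the family and related genes was mixed. It also holds genes that are not inhibitory receptors, such as Cd200, Cd226 and Sla2. Of 13 measured, 3 were 2-fold higher and 1 was 2-fold lower in Treg, with a median of 0.41. Cd200, a receptor ligand that restrains myeloid cells, stood at 2.26 (1.43 to 3.16) and Cd160, which shares the ligand HVEM with BTLA, at 1.64 (0.28 to 3.16). Cd96 stood at 0.81 (0.52 to 1.10) and Cd5, a brake on antigen receptor signals, at 0.71 (0.48 to 0.95). The follicular helper list had 7 of 10 genes 2-fold higher and 0 lower, with a median of 1.20. Its leading members were P2rx7, a receptor for extracellular ATP, at 1.86 (1.35 to 2.39), Tox at 1.67 (1.34 to 2.004), Cxcr5 at 1.65 (0.86 to 2.49) and Maf at 1.34 (0.87 to 1.83).

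Lists of cell state and of other cell types set the background for the receptors. The Treg signature had all 21 measured genes 2-fold higher, with a median of 3.72, the T cell receptor response list 7 of 12, with 1.14, and the effector list 7 of 21, with 0.75. The resting list had 5 of 16 genes 2-fold lower and a median of -0.37, the T lineage list a median of -0.19 and the proliferation list 0.03. Markers of other cell types were higher in Treg as well, with 8 of 9 B cell genes 2-fold higher and 734.2 against 194.2 CPM in sum, 7 of 10 myeloid genes and 553.1 against 292.1 CPM, and 3 of 7 plasmacytoid dendritic genes. Erythroid markers had 155.3 and 11.5 CPM, plasma cell markers 92.6 and 230.7, CD8 or NK markers 76.3 and 81.4 and platelet markers 10.9 and 1.997. Their part in the receptor values outside the cells left out above was not tested.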

How the data were processed

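Spleen cells of 2 sorted populations were counted with inDrops, in 1 library each, and cells were grouped by their titles with the series title. The table the authors deposited gives, for each cell, how many UMIs a gene had, as whole-number counts without normalization. TopHat2, SAMtools and the mm10 build are named in the submitters' processing notes. How UMIs were counted and cells filtered is not given in the sources used here.

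UMIs were summed per library and scaled to CPM, with exact Poisson, conditional binomial (ratios, odds ratios) and Clopper-Pearson (shares) intervals at 95%, which cover counting error only. The total depth was 1468203 and 2002752 UMIs, so 1 UMI is 0.681 CPM in Treg and 0.499 in Tconv. Genes needed 20 UMIs in both libraries together, a 2-fold difference was counted, and a library at 0 was set to 3 counts. Shares and pairs of genes used cells thinned to 1000 UMIs without replacement (seed 1). A cell with at least 3 UMIs of another cell type's list was counted as holding markers of that type. Doublets were called with scrublet in scanpy 1.11.5, with 15 calls in Treg and 16 in Tconv, and were left out only in an alternative. Of 252 entries in 20 gene lists 8 were absent from the table. Named were the 5 receptors, up to 4 genes per list by the interval bound farthest from 1, and the 5 genes with the highest phi per receptor and library with at least 30 cells; Cd80, Cd86 and Icosl and the single genes seen with each receptor were named outside this rule, after their values were seen. For the lists of cell state and of other cell types counts are given in place of names. A few genes that this rule names are not reported here. The receptors and lists were chosen with earlier results of these data known. Coordinates are from GENCODE for GRCm38, the assembly of mm10, and promoters from RefSeq for 3 of 5 receptors. Alternatives covered scaling (TMM from edgeR 4.0.16, R 4.3.3), depth, cells left out, gene minimum and random draw. Scripts ran in Python 3.11.15 with scipy 1.17.1, and were tested on simulated counts.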

Additional observations from a re-analysis of the deposited data

How the results depend on the processing

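No paired analysis was possible because each group is 1 library and the numbers in the titles count cells. Over 10 alternatives each, the log2 ratio ranged from 4.94 to 6.17 for Ctla4, 1.38 to 1.68 for Icos, 1.11 to 1.46 for Pdcd1, -0.43 to -0.25 for Cd28 and -0.35 to 0.03 for Btla. Of all genes past 2-fold, 70.5% were higher in Treg, against 57.6% with TMM scaling and 59.6% when the total left out ribosomal protein genes. With a minimum of 10 UMIs 11.96% of the genes measured were 2-fold higher and 5.05% lower, and with 50 UMIs 5.87% and 2.08%, against 8.61% and 3.60%; the number of genes moved by more than 1.5 times, since the minimum sets which genes are counted. Thinned to 500 UMIs, the odds ratio of Ctla4 with Cd28 in Treg was 0.628 and that of Icos by the effector list in Tconv 1.01. Another random thinning gave log2 ratios of 0.92 for the effector list by Icos, 0.85 for the Treg signature by Ctla4, -0.45 for the resting list by Ctla4 and 0.38 for the effector list by Cd28, all in Treg; these alternatives were chosen after seeing the data. The cause of these shifts was not tested. The shares of cells with a UMI moved with depth in 18 of 60 alternatives, and the sparse counts of Pdcd1 and of Ctla4 in Tconv limit their precision most.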
